A study of Mus musculus with 6 samples.

Results

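The genes described here are 39 transcripts that mark the cells a T cell meets inside a pancreatic tumour, read as RNA found in libraries of sorted T cells. They were listed by name and grouped by source cell: 14 mark KPC tumour epithelium, 16 mark acinar cells, 6 mark fibroblasts and 3 mark endothelium. All 39 were found among the 55471 genes in the tables. RNA was counted in any library for 36 of them, and 21 passed the filter on low counts and were tested, among 12546 genes tested in all.

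The libraries came from OT-I CD8+ T cells, which recognise an ovalbumin peptide and carried a Cas9 knock-in. The sgElovl1 group had received a lentiviral guide RNA against Elovl1, and the sgNT group a non-targeting guide, with CD90.1 as the mark of transduction in both. Cells were injected into mice bearing orthotopic tumours of KPC_OVA, a pancreatic ductal adenocarcinoma (PDAC) line that expresses ovalbumin, and every recipient received anti-PD-1 from the next day. The CD90.1+ cells were sorted from the primary tumour 7 days after transfer, giving 3 libraries per group. Each was read as coming from 1 tumour except sgElovl1 replicates 1 and 2. For those, the submitters' text was read as saying that RNA of 2 tumours, sorted and extracted separately, was pooled. The study's methods state only that cells of different mice were kept apart as replicates. On this reading the spread among the sgElovl1 libraries is partly one between pools. Pooling then occurred in the sgElovl1 group only, so its part and that of the guide cannot be told apart. The recipients were Rosa26-Cas9 mice, which kept their own immune cells. Per the study's methods the mice were young adults of either sex, and the age and sex behind each library were not given in the sources used here.

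Total expected counts, the estimated read pairs per gene summed over all genes, lay between 21980273 and 26165380 per library, so that 3 counts corresponded to 0.109 to 0.137 CPM, that is, counts scaled to a library of 1000000. The 9 T cell genes checked, among them Cd3e, Cd8a and Trac, were each at 659 CPM or more in every library. Values by library are given in the order of replicates 1, 2 and 3. Elovl1 stood at 81.5, 76.6 and 95.4 CPM in the sgElovl1 libraries, against 283, 280 and 255 CPM in the sgNT libraries, which fits the labels. In bulk RNA, fewer cells of a type and less RNA per cell cannot be told apart, and here a marker transcript may also be made by the T cells themselves.

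Each source has a known biology. Ductal and tumour epithelium is held together by E-cadherin and claudins and stiffened by keratin filaments, of which keratins 7, 8, 18 and 19 are typical of simple epithelium. Acinar cells make the digestive enzymes of the pancreas, with trypsins, chymotrypsins, elastases, lipases and amylase among their most abundant messages. Fibroblasts lay down collagens and fibronectin, which are plentiful in the stroma of pancreatic cancer, and endothelial cells line its vessels.

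Summed over its 14 members, the epithelial level was far higher in the third library of both groups than in the other libraries. It was 51.5, 66.8 and 409 CPM in the sgElovl1 libraries, against 72.7, 63.0 and 1156 CPM in the sgNT libraries. The group means were 176 ± 202 CPM in sgElovl1 and 431 ± 628 CPM in sgNT (SD, n = 3 each), so the SD exceeded the mean in both groups and the groups overlapped. The highest library held 22.5 times the level of the lowest, and even there the epithelial members made up 0.116% of all counts. For scale, the 9 T cell genes held 13793 to 16282 CPM.

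The other sources were lower, and only the fibroblast sum was also highest in replicate 3 of both groups. Acinar members summed to 21.6, 13.5 and 19.2 CPM in the sgElovl1 libraries, against 14.6, 13.7 and 8.25 CPM in the sgNT libraries. Fibroblast members summed to 1.66, 2.61 and 3.09 CPM in the sgElovl1 libraries, against 0.332, 0.420 and 3.13 CPM in the sgNT libraries. Endothelial members summed to 15.1, 14.9 and 12.2 CPM in the sgElovl1 libraries, against 10.5, 10.9 and 12.2 CPM in the sgNT libraries. The groups overlapped for every source except endothelium, where the lowest sgElovl1 library was only just above the highest sgNT library. These sums are CPM on the library total, and with TMM scaling Pecam1, nearly the whole endothelial sum, overlapped between the groups.

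**Figure D1:**
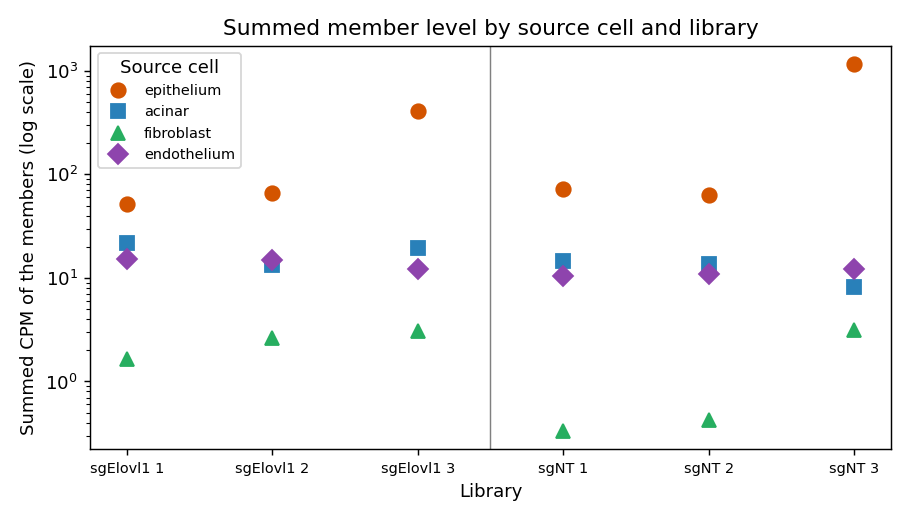
Summed level of the members of each source cell in each library, as CPM on the library total and on a log axis, with the sgElovl1 libraries left of the grey line and the sgNT libraries right of it. Epithelial members stand at 409 CPM in sgElovl1 replicate 3 and at 1156 CPM in sgNT replicate 3, against 51.5 to 72.7 CPM in the other libraries.

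Between sgElovl1 and sgNT cells, 1 of the 21 tested members was called, Tff1, which was lower in sgElovl1 (edgeR's quasi-likelihood test, Benjamini-Hochberg adjusted over all 12546 genes, adjusted p under 0.05). No member was called higher. Of all tested genes 13.8% were called, 8.64% higher and 5.13% lower. At an unadjusted p under 0.05 there were 3 of 21 members and 4034 of the 12546 genes. The members also had a larger standard error than most genes, with a median of 0.57 log2 against 0.17 log2 over all tested genes, and their median fold change was -0.21 log2 against 0.00 log2 over all tested genes. The groups did not overlap for 3 of the 21 members, Tff1, Cela2a and Ctrl, and for 37.1% of all tested genes.

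Keratins carried most of the epithelial counts in the third libraries. Krt8 and Krt18 form the filament pair of simple epithelium, and Krt7 and Krt19 are typical of ducts. Krt8 (type II, ENSMUSG00000049382) had 55, 160 and 2323 counts in the sgElovl1 libraries, against 270, 132 and 7973 counts in the sgNT libraries. Krt18, its type I partner (ENSMUSG00000023043), had 81, 165 and 1229 counts in the sgElovl1 libraries, against 265, 123 and 5558 counts in the sgNT libraries. Both groups span a wide range for this pair, and sgElovl1 replicate 3 lay above sgNT replicates 1 and 2.

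Krt19 (ENSMUSG00000020911) had 46, 164 and 2245 counts in the sgElovl1 libraries, against 150, 131 and 7502 counts in the sgNT libraries. Krt7 (ENSMUSG00000023039) had 3, 44 and 463 counts in the sgElovl1 libraries, against 4, 7 and 2526 counts in the sgNT libraries. Krt7 was thus almost absent from sgElovl1 replicate 1 and sgNT replicates 1 and 2, and its highest library held 905 times the normalised level of its lowest, the widest range of the 21 tested members with a count in every library. None of the 4 keratins passed the test. Their log2 fold changes were -2.22 ± 2.74 for Krt7, -1.61 ± 2.32 for Krt8, -1.93 ± 2.04 for Krt18 and -1.55 ± 2.38 for Krt19 (± SE), with adjusted p between 0.576 and 0.708. Without sgNT replicate 3 the sign of each turned, to 5.05, 2.19, 1.43 and 2.67 log2 in the same order, again with none called.

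Krt7, Krt8 and Krt18 lie on chromosome 15 of GRCm38, the assembly also called mm10, with 566384 bases between Krt7 and Krt8 and 23697 bases between Krt8 and Krt18 (GENCODE M21). Krt19 lies on chromosome 11, from 100140810 to 100148665. The promoters of the 3 neighbours, which were high in the same libraries, are set here beside that of Epcam, which varied far less between libraries. Each runs from 250 bases before to 50 bases after the RefSeq start on GRCm38.p6, written 5′ to 3′ along the gene's strand. Capitals mark matches, on either strand, to the core promoter box TATAAA, the Sp1 motif GGGCGG or the AP-1 motif TGAGTCA.
Krt7, chr15:101412153-101412452, plus strand: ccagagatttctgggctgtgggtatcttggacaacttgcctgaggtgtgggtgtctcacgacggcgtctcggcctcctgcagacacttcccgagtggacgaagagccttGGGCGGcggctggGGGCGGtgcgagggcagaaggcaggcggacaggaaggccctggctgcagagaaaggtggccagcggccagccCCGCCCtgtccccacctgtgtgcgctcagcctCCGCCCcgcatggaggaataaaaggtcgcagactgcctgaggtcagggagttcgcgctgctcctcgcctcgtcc
Krt8, chr15:102004293-102004592, minus strand: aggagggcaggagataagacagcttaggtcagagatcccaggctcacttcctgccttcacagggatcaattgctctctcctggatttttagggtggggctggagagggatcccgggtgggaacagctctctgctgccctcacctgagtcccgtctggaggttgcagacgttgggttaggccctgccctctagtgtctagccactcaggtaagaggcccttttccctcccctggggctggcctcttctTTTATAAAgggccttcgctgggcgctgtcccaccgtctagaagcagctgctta
Krt18, chr15:102027966-102028265, plus strand: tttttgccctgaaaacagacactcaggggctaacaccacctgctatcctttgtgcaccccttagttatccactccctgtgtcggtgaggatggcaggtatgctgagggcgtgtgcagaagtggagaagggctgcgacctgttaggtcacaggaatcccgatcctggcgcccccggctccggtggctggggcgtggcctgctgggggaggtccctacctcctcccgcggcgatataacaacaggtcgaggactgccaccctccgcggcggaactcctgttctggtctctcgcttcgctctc
Epcam, chr17:87635729-87636028, plus strand: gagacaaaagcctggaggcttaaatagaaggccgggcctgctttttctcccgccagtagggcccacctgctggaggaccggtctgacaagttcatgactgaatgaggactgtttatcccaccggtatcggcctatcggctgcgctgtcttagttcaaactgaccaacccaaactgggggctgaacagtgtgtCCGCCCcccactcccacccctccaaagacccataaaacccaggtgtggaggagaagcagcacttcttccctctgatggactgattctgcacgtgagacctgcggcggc

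The 3 keratin promoters did not share any of these motifs. Krt7 held 4 Sp1 motifs, Krt8 held the core box, read on both strands as 2 overlapping matches, Krt18 held none of the 3 motifs, and Epcam held 1 Sp1 motif. Among 32851 promoters of the same length, 13.6% held TATAAA, 35.7% held GGGCGG and 5.2% held TGAGTCA. A match is a description of the letters only. Of the 39 members, 26 had a promoter of this length in the RefSeq table.

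Msln, Muc1 and Lgals4 followed the keratins. Mesothelin (Msln), a surface protein of mesothelium that many pancreatic tumours carry, had 7, 23 and 369 counts in the sgElovl1 libraries, against 68, 27 and 745 counts in the sgNT libraries. The membrane mucin gene Muc1 had 78, 85 and 251 counts in the sgElovl1 libraries, against 78, 77 and 1172 counts in the sgNT libraries. Lgals4, which encodes the gut epithelial lectin galectin-4, had 166, 254 and 1151 counts in the sgElovl1 libraries, against 177, 96 and 2375 counts in the sgNT libraries. Replicate 3 was the highest library of its group for each of them, and the groups overlapped. Their log2 fold changes were -0.97 ± 2.04, -1.65 ± 1.48 and -0.69 ± 1.65 in that order (± SE), with edgeR adjusted p of 0.791, 0.508 and 0.815.

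Epcam and Cdh1, the genes of the 2 classical epithelial adhesion molecules, varied less. Epcam had 187, 280 and 391 counts in the sgElovl1 libraries, against 257, 382 and 605 counts in the sgNT libraries. The means were 11.8 ± 5.51 CPM in sgElovl1 and 17.0 ± 7.27 CPM in sgNT (SD, n = 3 each, TMM-normalised), and each sgElovl1 library was below the sgNT library of its number, although the groups overlapped. The log2 fold change was -0.53 (SE 0.44, edgeR adjusted p = 0.448). With the replicate number as a block, a pairing that the labels do not name, it was -0.54 (SE 0.14, edgeR adjusted p = 0.0412). That made Epcam a second called member, beside 4.44% of all tested genes called lower in that fit.

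Cdh1, which encodes E-cadherin, had 467, 371 and 433 counts in the sgElovl1 libraries, against 239, 357 and 855 counts in the sgNT libraries. The sgNT libraries lay on both sides of the sgElovl1 libraries, and only sgNT replicate 3 stood high. The log2 fold change was -0.21 (SE 0.52, edgeR adjusted p = 0.814), and 0.38 once the third libraries were left out.

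Tff1 was the member that differed between the groups. It encodes a trefoil peptide secreted by gastric mucous cells and by pancreatic neoplasms of gastric type. It had 174, 191 and 101 counts in the sgElovl1 libraries, against 243, 307 and 207 counts in the sgNT libraries. Its level was 6.09 ± 1.28 CPM in sgElovl1 and 10.3 ± 1.70 CPM in sgNT (SD, n = 3 each, TMM-normalised), and every sgElovl1 library was below every sgNT library. The log2 fold change was -0.75 (SE 0.22, edgeR adjusted p = 0.0430). Tff1 did not follow the keratins: replicate 3 was its lowest library in both groups. The call was lost without any 1 of sgElovl1 replicates 1, 2 and 3 or sgNT replicates 1 and 2, with adjusted p of 0.0661 to 0.185 and fold changes of -0.59 to -0.86 log2, and kept without sgNT replicate 3, with adjusted p = 0.0447 and a fold change of -0.86 log2. It was also lost with an offset for gene length (-0.74 log2, adjusted p = 0.0783) and on TPM (-0.62 log2, adjusted p = 0.129). The fold change stayed negative in each of these fits.

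**Figure D2:**
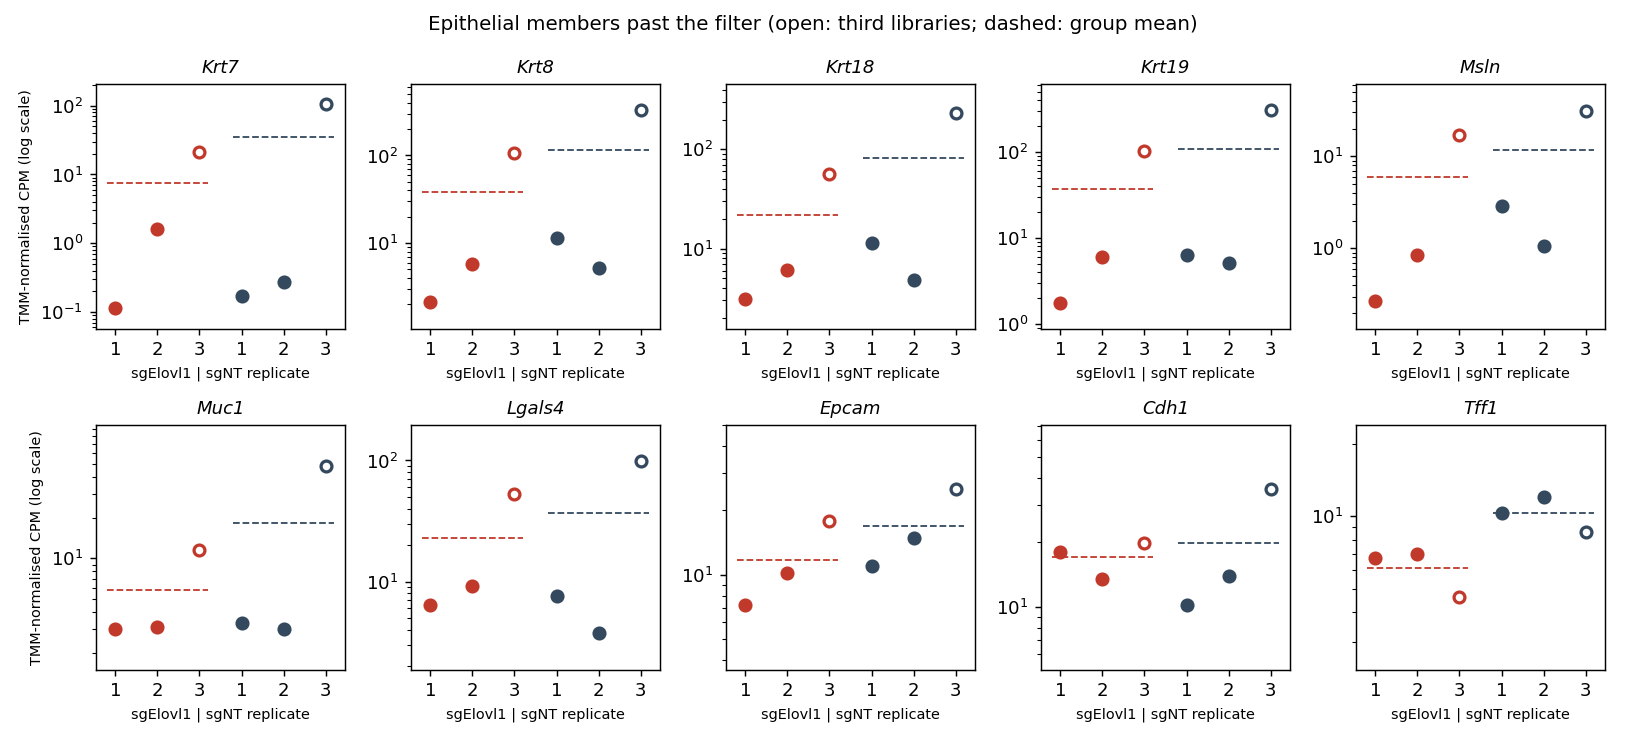
TMM-normalised CPM, on a log axis that differs between panels, of the 10 tested epithelial members in the 6 libraries, with sgElovl1 in red on the left and sgNT in dark blue on the right. Open points are the third libraries and dashed lines the group means. In every panel but Tff1 the open points are the highest of their group.

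Of the 10 tested epithelial members, 9 had the third libraries of the 2 groups as their 2 highest libraries, and the same number were highest in sgNT replicate 3. Over all tested genes these shares were 7.66% and 19.3%. A range of more than 10-fold between libraries was seen for 7 of the 10, against 4.65% of all tested genes. Of the third libraries, that of sgElovl1 had the fewest counts of all libraries, 21980273, and that of sgNT had 25564484, within the range of the rest. The part of any feature of these libraries in the keratin level was not tested.

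The make-up of the epithelial counts changed along with their amount. The 4 keratins held 14.6% and 30.6% of the epithelial counts in sgElovl1 replicates 1 and 2 and 69.7% (68.7 to 70.6%, 95% Wilson interval) in replicate 3, against 39.3% and 23.8% in sgNT replicates 1 and 2 and 79.7% (79.2 to 80.2%) in replicate 3. Tff1, Epcam and Cdh1 together held 65.1% and 48.4% in sgElovl1 replicates 1 and 2 and 10.3% in replicate 3, against 42.2% and 63.5% in sgNT replicates 1 and 2 and 5.64% in replicate 3. The keratin share was highest, and that of the other 3 genes lowest, in replicate 3 of each group. The summed counts of Tff1, Epcam and Cdh1 did not fall there. They were 828, 842 and 925 in the sgElovl1 libraries, against 739, 1046 and 1667 in the sgNT libraries. These genes varied less between libraries than the keratins, and shares of the same total move against each other, so their lower share is no separate result. The intervals cover counting error only, since reads were amplified and carried no molecular identifiers.

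**Figure D3:**
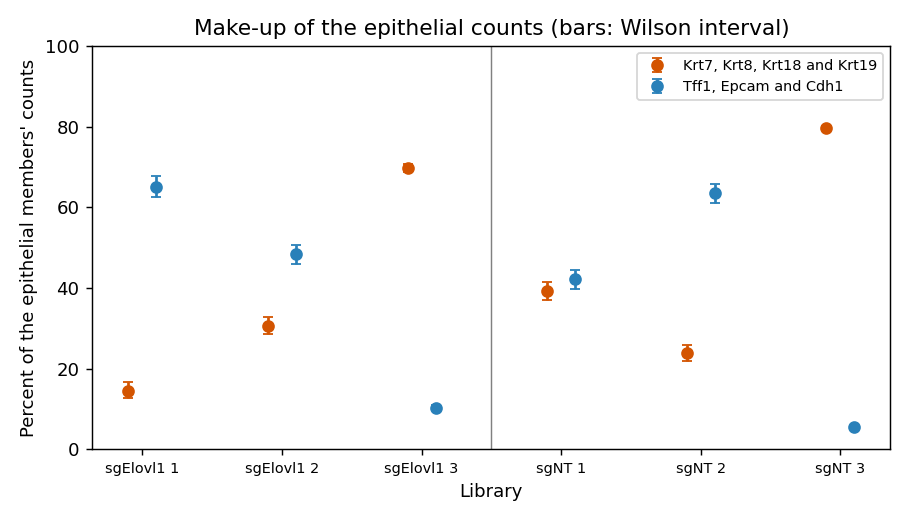
Percent of all epithelial member counts in each library that came from the 4 keratins (orange) and from Tff1, Epcam and Cdh1 (blue), with 95% Wilson intervals, sgElovl1 left and sgNT right of the grey line. Keratins held 69.7% in sgElovl1 replicate 3 and 79.7% in sgNT replicate 3, and under 40% in each other library.

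The keratins also differed among themselves. Krt18 held 43.8%, 31.0% and 19.6% of the 4 keratins' counts in the sgElovl1 libraries, against 38.5%, 31.3% and 23.6% in the sgNT libraries, and was lowest in replicate 3 of both groups. Krt7 held 1.62%, 8.26% and 7.40% in the sgElovl1 libraries, against 0.581%, 1.78% and 10.7% in the sgNT libraries. Per length, as mean TPM over the 6 libraries, Krt19 stood highest at 69.5, followed by Krt8 at 44.3 and Krt18 at 43.6, with Lgals4 at 28.7, Tff1 at 20.7, Epcam at 9.93 and Krt7 at 5.43. The third libraries carried this order. In the other 4 libraries Tff1 was the highest epithelial member, at 18.9 and 18.7 TPM in sgElovl1 replicates 1 and 2, against 25.0 and 30.3 TPM in sgNT replicates 1 and 2. Krt19 stood there at 2.06 and 6.11 TPM in sgElovl1, against 6.70 and 4.72 TPM in sgNT.

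The remaining epithelial members were rare. Cldn4 and Cldn7, which encode tight junction proteins, and Sox9, a transcription factor of ducts, had at most 20 counts in any library. Cldn4 was seen with 11 counts in sgElovl1 replicate 3 and 10 in sgNT replicate 3, and with at most 1 count elsewhere. Tff2, another trefoil gene near Tff1 on chromosome 17, had 0 counts in every library, which allows up to 3 counts per library.

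Among 30 further epithelial genes that are not members, 8 were tested and none was called (0 at an unadjusted p under 0.05), and 7 of the 8 had the third libraries as their 2 highest. Their median log2 fold change was -1.07, against 0.00 over all tested genes. Their median standard error was 1.91 log2, against 0.17 log2 over all tested genes, and 6 of the 8 were highest in sgNT replicate 3. Krt20, a keratin of gut epithelium, had 6, 16 and 1418 counts in the sgElovl1 libraries, against 111, 4 and 2288 counts in the sgNT libraries. Spp1, the most abundant of these genes, and Ceacam1 varied far less, at 3.63-fold and 2.66-fold between the lowest and the highest library. 

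Acinar transcripts were found in every library at low counts, and no acinar member was called. Of 16 members, 15 had a count and 9 were tested, of which 7 had a positive and 2 a negative fold change, with a median of 0.34 log2 against 0.00 over all tested genes. The most abundant by count was Amy2a5, a pancreatic amylase, with 246, 109 and 152 counts in the sgElovl1 libraries, against 162, 135 and 64.8 counts in the sgNT libraries. Its log2 fold change was 0.46 (SE 0.39, edgeR adjusted p = 0.456). The coding sequence of Amy2a5 is identical over its 1524 bases to those of Amy2a2, Amy2a3 and Amy2a4, which each received 3.07 to 17.5 counts, so the split between the 4 copies is uncertain.

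The proteases that differed most were Cela2a and Ctrl, which encode a pancreatic elastase and a chymotrypsin-like enzyme. Cela2a had 46, 23 and 19 counts in the sgElovl1 libraries, against 6, 14 and 7 counts in the sgNT libraries. Every sgElovl1 library was above every sgNT library, and the log2 fold change was 1.65 (SE 0.53, edgeR adjusted p = 0.0591), which did not pass. Ctrl had 17, 14 and 9 counts in the sgElovl1 libraries, against 5, 4 and 0 counts in the sgNT libraries. These groups were also apart, with a log2 fold change of 2.06 (SE 0.80, edgeR adjusted p = 0.104), and the counts are too few for more.

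The chymotrypsinogen gene Ctrb1 had 20, 30 and 15 counts in the sgElovl1 libraries, against 20, 22 and 9 counts in the sgNT libraries. The carboxypeptidase gene Cpb1 had 21, 10 and 39 counts in the sgElovl1 libraries, against 16, 6 and 10 counts in the sgNT libraries. For both, the groups overlapped. The bile salt-activated lipase gene Cel had 16, 24 and 11 counts in the sgElovl1 libraries, against 27, 20 and 16 counts in the sgNT libraries. Reg1, a lectin-like secretory protein gene of acinar cells, had 11, 18 and 40 counts in the sgElovl1 libraries, against 13, 25 and 18 counts in the sgNT libraries. Fold changes of these 4 genes lay between -0.37 and 1.14 log2, with edgeR adjusted p of 0.244 to 0.723.

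The trypsin genes lie among T cell receptor segments, and the part of T cells in the trypsin RNA was not tested. Prss1, Prss2, Prss3, Try4 and Try5 lie inside the T cell receptor beta locus on chromosome 6, between its first variable segment, Trbv1 (40891229 to 40891885), and its second constant region, Trbc2 (41546730 to 41548352). They are 5 of the 14 protein-coding genes other than receptor segments there. Prss2 (41521787 to 41525079, plus strand) ends 8122 bases before the diversity segment Trbd1. It had 82, 75 and 57 counts in the sgElovl1 libraries, against 56, 73 and 52 counts in the sgNT libraries. These 6 values are the most even of the acinar members tested, at 1.47-fold between the lowest and the highest normalised level, and the log2 fold change was 0.20 (SE 0.28, edgeR adjusted p = 0.652).

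Try5 had 17.5, 32 and 30.6 counts in the sgElovl1 libraries, against 30.6, 35.8 and 20 counts in the sgNT libraries. Its log2 fold change was -0.12 (SE 0.43, edgeR adjusted p = 0.875). Try4, not tested, had 16.5, 5 and 21.4 counts in the sgElovl1 libraries, against 7.39, 8.19 and 3 counts in the sgNT libraries. Their counts are not whole because RSEM shared reads between near-identical copies. The coding sequences of Try4 and Try5 differ at 19 of 738 bases, with 97.4% identity and an unbroken identical run of 274 bases, whereas Prss2 is 91.7% identical to Try4 and 90.4% to Try5. The window of 60 coding bases with the most differences, from coding base 463 to 522 (GENCODE M21 transcripts), shows how few letters separate them, with the 5 differing bases in capitals.
Try4, chr6:41304944-41305003, plus strand: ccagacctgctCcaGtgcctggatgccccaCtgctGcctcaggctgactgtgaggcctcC
Try5, chr6:41311762-41311821, minus strand: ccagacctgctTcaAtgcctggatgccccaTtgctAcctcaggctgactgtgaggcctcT

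The 5 trypsin genes together held 21.7%, 31.9% and 26.5% of the acinar counts in the sgElovl1 libraries, against 26.8%, 33.7% and 35.5% in the sgNT libraries. Prss3 had 2.69 counts in sgElovl1 replicate 3 and 4 in sgNT replicate 2, and none elsewhere. Prss1 had 0 counts in every library, which allows up to 3 per library. Pnlip and Clps (pancreatic lipase and its cofactor colipase), Cela3b and Cpa1 had at most 17 counts in any library.

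Among 22 further acinar genes, 6 were tested and 1 was called lower, beside 5.13% of all tested genes. That gene was Cela1, an elastase gene. It had 150, 139 and 131 counts in the sgElovl1 libraries, against 242, 356 and 346 counts in the sgNT libraries. Its log2 fold change was -1.19 (SE 0.19, edgeR adjusted p = 0.00424), opposite in sign to that of Cela2a. Of the acinar transcription factor genes listed, Ptf1a and Rbpjl had 0 counts in every library. Bhlha15 had 5 and 1 counts in sgElovl1 replicates 1 and 2, and Nr5a2 had 2 counts in sgElovl1 replicate 1. Neither was counted in any other library.

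**Figure D4:**
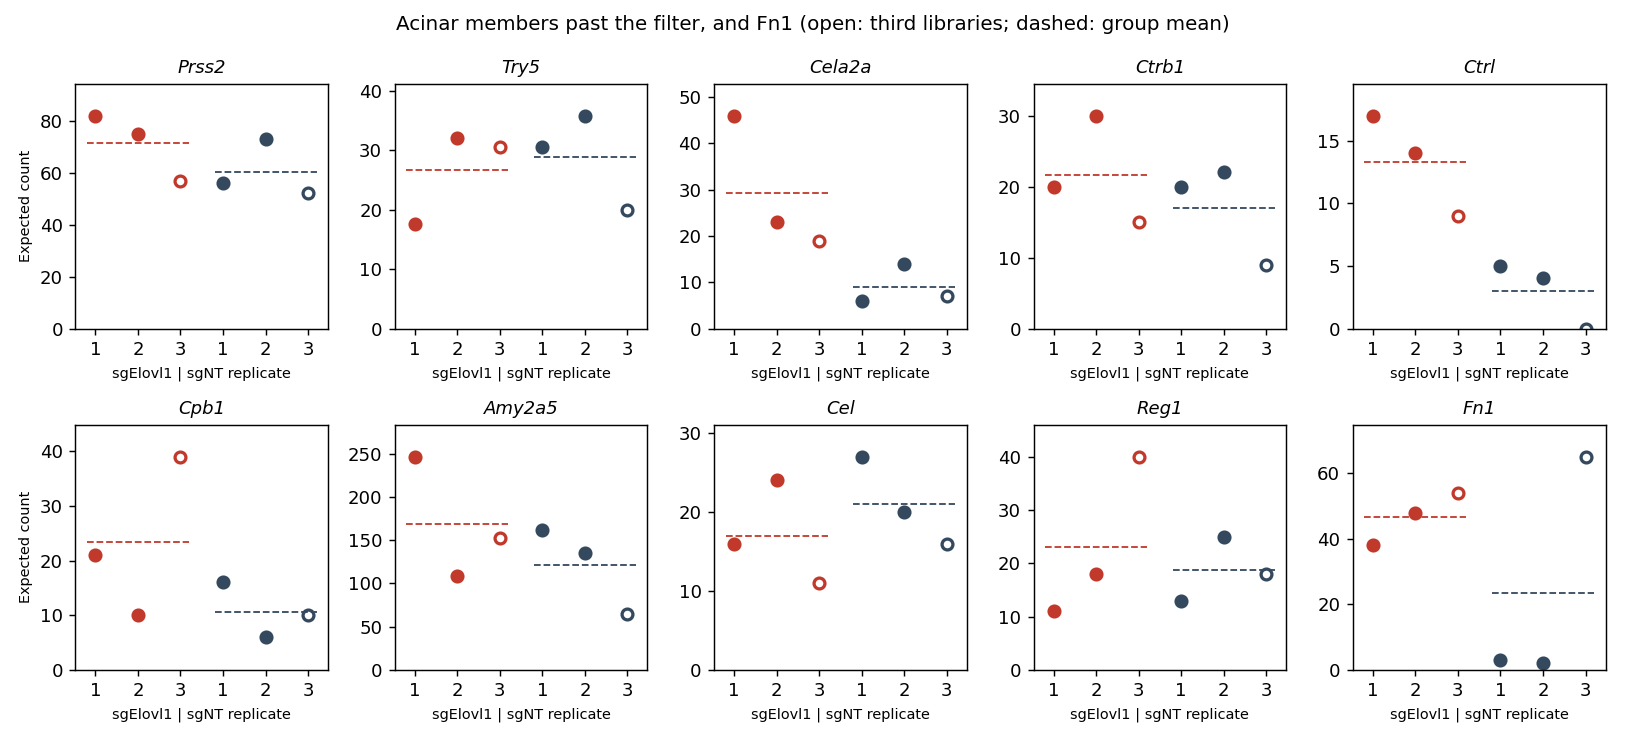
Expected counts, on linear axes that start at 0 and differ between panels, of the 9 tested acinar members and the fibroblast member Fn1 in the 6 libraries, with sgElovl1 in red on the left and sgNT in dark blue on the right. Open points are the third libraries and dashed lines the group means. Cela2a and Ctrl are apart between the groups, and Fn1 is low in sgNT replicates 1 and 2 only.

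Among the 6 fibroblast members, Fn1 was the one with more than 11 counts in any library. The fibrillar collagen genes Col1a1, Col1a2 and Col3a1 and the proteoglycan gene Dcn had at most 9 counts in any library, and Sparc, a matrix-binding protein gene, had at most 11. Fn1, which encodes fibronectin, had 38, 48 and 54 counts in the sgElovl1 libraries, against 3, 2 and 65 counts in the sgNT libraries. Fn1 thus had 38 counts or more in every sgElovl1 library and in sgNT replicate 3, and 3 counts or fewer in sgNT replicates 1 and 2. The log2 fold change was 0.97 (SE 1.23, edgeR adjusted p = 0.637). Without sgNT replicate 3 it was 4.15 (SE 0.60, edgeR adjusted p = 0.00837), and with the third libraries left out 3.91 (SE 0.68, edgeR adjusted p = 0.00197), both called higher.

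Macrophages also make fibronectin. Of 15 macrophage genes all had a count, 12 were tested and 4 were called higher in sgElovl1, beside 8.64% of all tested genes. The called genes were Adgre1, C1qa, Fcgr1 and Ccr2, of which Ccr2 is also a T cell gene. The other 8 were not called, with log2 fold changes of -0.34 for Cd68, -0.01 for Ctss and 2.09 to 3.61 for the rest. The list summed to 486, 518 and 720 CPM in the sgElovl1 libraries, against 333, 300 and 338 CPM in the sgNT libraries, most of it Ccr2, Ctss and Cd68. Adgre1, which encodes F4/80, had 26, 19 and 68 counts in the sgElovl1 libraries and 0 counts in every sgNT library. Lyz2, a lysozyme gene, had 1395, 2123 and 3484 counts in the sgElovl1 libraries, against 25, 221 and 339 counts in the sgNT libraries. C1qb, a complement gene of macrophages, had 47, 196 and 549 counts in the sgElovl1 libraries, against 12, 10 and 74 counts in the sgNT libraries. Within sgNT, Lyz2, C1qb, C1qa and Fcgr1 were highest in replicate 3, as were Fn1 and the keratins. Of the other macrophage genes named, Cd68 and Ctss were highest within sgNT in replicate 2 and Ccr2 in replicate 1, and Adgre1 was absent. Lyz2, C1qb, Cd68, Ctss and the uncalled fibroblast and endothelial genes of the wider lists were named after their values were seen. The part of these cells in the Fn1 level was not tested. Of 24 further fibroblast genes, 2 were tested, Fbln1 and Igfbp7, and none was called (1 at an unadjusted p under 0.05). Igfbp7, a secreted binding protein gene that endothelium also expresses, had 832, 769 and 425 counts in the sgElovl1 libraries, against 616, 520 and 751 counts in the sgNT libraries. Fn1 was thus not the highest fibroblast-list gene, and Igfbp7 overlapped between the groups.

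Of the endothelial members, Pecam1 was the one with more than 1 count in any library. This adhesion molecule gene (CD31) is used as an endothelial marker and is also expressed by leukocytes. It had 373, 388 and 269 counts in the sgElovl1 libraries, against 254, 284 and 311 counts in the sgNT libraries. The means were 13.6 ± 1.13 CPM in sgElovl1 and 11.6 ± 1.12 CPM in sgNT (SD, n = 3 each, TMM-normalised), the groups overlapped, and the log2 fold change was 0.23 (SE 0.16, edgeR adjusted p = 0.332). Cdh5, which encodes VE-cadherin, had 0 counts in every library, and Kdr, a receptor gene for vascular endothelial growth factor, had 1 count in sgElovl1 replicate 2 and 0 elsewhere. The endothelial label was therefore not borne out by its other 2 members. Of 18 further endothelial genes, 2 were tested, Egfl7 and Flt1, and none was called (0 at an unadjusted p under 0.05). Egfl7, which encodes a secreted endothelial factor, had 91, 78 and 62 counts in the sgElovl1 libraries, against 83, 61 and 98 counts in the sgNT libraries. Flt1, another receptor gene for vascular endothelial growth factor, had 0, 3 and 17 counts in the sgElovl1 libraries, against 31, 3 and 46 counts in the sgNT libraries. Ecscr and Sox17 reached 25 and 23 counts in sgNT replicate 3, while Vwf, Cldn5, Tek, Tie1 and Emcn had 0 counts throughout. In all, 11 of the 18 had a count, among them Rasip1 and Cd34 with at most 19 and 14 counts in any library.

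**Figure D5:**
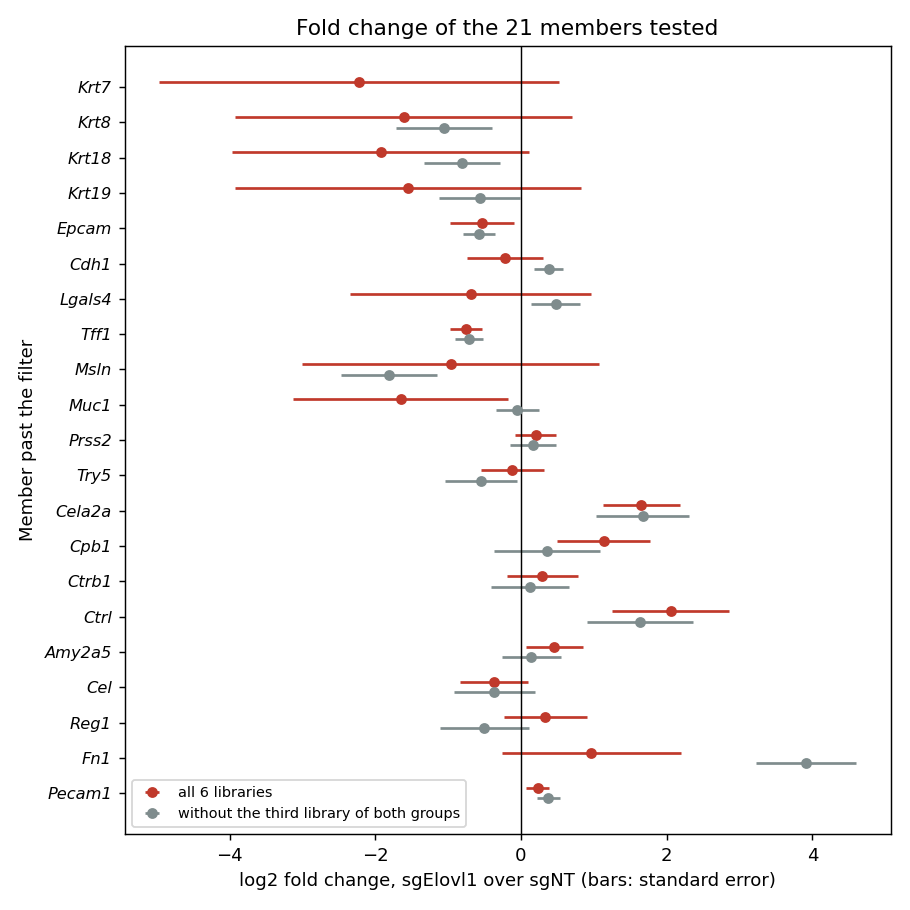
Log2 fold change of sgElovl1 over sgNT with its standard error for the 21 tested members, from all 6 libraries (red) and with the third libraries left out (grey), where Krt7 was below the filter. Bars of the keratins shrink without the third libraries, and Fn1 moves to 3.91 log2.

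Without the third library of both groups, 20 of the members were tested and 2 were called, Tff1 lower (-0.71 log2, SE 0.19, edgeR adjusted p = 0.0166) and Fn1 higher. Of all genes tested in that fit 31.5% were called, 15.4% higher and 16.1% lower. The keratin standard errors were then 0.66 for Krt8, 0.52 for Krt18 and 0.56 for Krt19, and their log2 fold changes were -1.06, -0.81 and -0.57, none called. The epithelial sum was then close between the groups, with a log2 ratio of -0.20, whereas with all libraries it was -1.29.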

How the data were processed

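RNA of CD90.1+ OT-I T cells was pre-amplified (SMARTer) and sequenced as 6 libraries, 3 sgElovl1 and 3 sgNT, grouped by sample title. Per the submitters' processing notes, the authors used mm10, STAR 2.7.7a and RSEM 1.3.1, with DESeq2 1.36.0 for their own comparison. The deposited gene tables give expected counts (estimated read pairs, not scaled between libraries), which were rounded for testing. The deposited TPM values, scaled by length and depth, were used for levels between genes and in 1 alternative, and the deposited gene lengths for the length offset. The annotation release is not given in the sources used here, and symbols and coordinates were taken from GENCODE M21, which matched 55144 of 55471 gene IDs.

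Groups were compared with edgeR 4.0.16 (R 4.3.3; low counts removed by filterByExpr at a minimum of 10, TMM scaling, robust quasi-likelihood fit on group, two-sided test), with Benjamini-Hochberg adjustment over 12546 genes and calls at an adjusted p under 0.05. The biological coefficient of variation was 0.22. Gene levels are TMM-normalised CPM, and sums are CPM on the library total. The main edgeR fit was tested on simulated counts drawn at the fitted dispersion trend. Other steps were not tested this way. Alternatives were limma 3.58.1 (voom, and log2(TPM + 0.1)), DESeq2 1.42.0, no filter, a gene length offset, a replicate block and leaving libraries out. The replicate number was checked for pairing. Deviations of same-numbered libraries from their group means correlated at 0.21, 0.24 and 0.41, each higher than with any other number. Replicates 1 and 2 were little told apart: sgElovl1 replicate 1 with sgNT replicate 2 gave 0.17, and sgElovl1 replicate 2 with sgNT replicate 1 gave 0.11. The labels name no shared batch, so this check cannot decide whether the numbers pair the libraries. With 3 libraries per group, p-values set the group difference against the spread between these libraries. They include sgElovl1 replicates 1 and 2, read here as pooled. The members and gene lists were chosen with earlier results of these data known. All members are accounted for, those past the filter with the value in every library. In the wider lists, called genes were to be named. The uncalled genes of those lists that the text names were chosen after their values were seen.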

Additional observations from a re-analysis of the deposited data

How the results depend on the processing

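The number of called members was 2 with the replicate block (Epcam and Tff1, both lower), 0 with the gene length offset, 0 on TPM, 2 without the third library of both groups (Tff1 lower, Fn1 higher), and 0 to 2 when single libraries were left out. It was 1 with DESeq2, limma-voom and no filter. Of all genes tested, 13.8% were called in the main comparison, 13.4% with the block, 9.23% with the offset, 7.71% on TPM, 31.5% without the third libraries, 19.9% with DESeq2, 13.3% with limma-voom, 8.72% without a filter and 2.47 to 21.1% with single libraries left out. DESeq2 gave an adjusted p for 15 of the 21 members. The replicate block changed no other call among the members. The log2 ratio of the epithelial sums lay between -2.86 and 1.37 when single libraries were left out, and that of the fibroblast sums between 0.47 and 2.71, with 2.51 without the third library of both groups. The endothelial ratio was 0.33, against -0.12 on TPM and 0.49 without the third libraries. Leaving out its most abundant member gave no value, since the other members were at 0 in sgNT.

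Signs of uncalled fold changes turned in 18 cases. With single libraries left out, log2 fold changes ran between -5.32 and 5.05 for Krt7, -4.85 and 2.19 for Krt8, -4.16 and 1.43 for Krt18, -4.78 and 2.67 for Krt19, -0.51 and 0.51 for Cdh1, -2.22 and 2.01 for Lgals4, -4.37 and 1.59 for Msln, -2.58 and 0.89 for Muc1, -0.35 and 0.12 for Try5, and -0.49 and 0.70 for Reg1. On TPM, Cdh1 was at 0.0681, Lgals4 at 0.0495 and Pecam1 at -0.12, and with limma-voom Lgals4 was at 0.00065. Without the third libraries, Cdh1 was at 0.38, Lgals4 at 0.47 and Reg1 at -0.50. The cause was not tested. Several acinar members had few counts, such as Ctrl with at most 17 in any library. The keratins had standard errors of 2.04 to 2.74 log2 in the main fit, and Fn1 of 1.23 log2.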

Other observations

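Lists of other cells that a pancreatic tumour can hold differed widely in level. The 6 B cell genes summed to 179, 256 and 225 CPM in the sgElovl1 libraries, against 275, 370 and 165 CPM in the sgNT libraries. Nearly all of it was Ighm, the gene of the immunoglobulin mu heavy chain, with 4274, 6419 and 4767 counts in the sgElovl1 libraries, against 6435, 9499 and 4037 counts in the sgNT libraries. Ighm and Cd79b were tested, and neither was called (0 at an unadjusted p under 0.05, edgeR). Islet hormone and secretory genes, 10 in all, summed to 0.405, 0.499 and 0.136 CPM in the sgElovl1 libraries, against 0.0829, 0.382 and 0.117 CPM in the sgNT libraries, and Ins1 and Ins2 had 0 counts in every library. The 8 platelet genes summed to 0.162, 0.499 and 2.32 CPM in the sgElovl1 libraries, against 0, 0 and 0.313 CPM in the sgNT libraries. The 6 erythroid genes reached 1.73 CPM in sgElovl1 replicate 3 and stayed at or below 0.0829 CPM in each other library. None of the islet, platelet and erythroid genes passed the filter on low counts.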
